A study of Mus musculus with 6 samples.

Results

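The genes described here are the ligands and receptors of the TNF superfamily in TKPTS, an immortalised cell line of the mouse kidney proximal tubule. They were chosen by symbol: every gene named Tnfsf or Tnfrsf followed by a digit, together with Tnf, Lta, Ltb, Ltbr, Cd40, Cd40lg, Fas, Fasl, Cd70 and Cd27. The rule found 39 of the 29595 genes in the table, namely 15 ligands, 23 receptors and the antisense entry Tnfsf13os. Cd40lg and Cd70 had no entry under those symbols in the table. The study introduced either pcDNA3.1-Hnf3a-Flag, which drives a Flag-tagged copy of the forkhead transcription factor HNF3α (gene symbol Foxa1), or the pcDNA3.1-Flag vector without that insert, and collected the cells after 24 h. The groups are called Hnf3a and pcDNA, with 3 RNA sequencing libraries in each. The comparison asks how these genes differed when HNF3α was raised. The labels do not say whether libraries of a group came from separate cultures, so p-values measure the spread between these libraries, which may be technical. In bulk RNA, fewer cells of a type and less RNA per cell cannot be told apart.

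TNF superfamily ligands are trimers that sit in the cell membrane or are cut from it, and each binds a small set of receptors on the same or on neighbouring cells. Some receptors carry a death domain, through which they can start cell death, and others recruit TRAF adaptors and switch on NF-κB. In kidney tubules the family is best known for its part in inflammation and tubule injury, through TNF itself, TWEAK and its receptor Fn14, Fas and TRAIL.

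The libraries held between 60473818 and 71154667 estimated counts. Foxa1 counts were 69508 to 80803 with the Hnf3a plasmid and 2134 to 2416 with the vector, a log2 fold change of 4.97 (SE 0.067, edgeR adjusted p = 5.99e-10), and the table does not separate the plasmid's transcript from that of the chromosomal gene. Of 19 listed tubule and epithelial markers 16 were in the table, and 14 to 15 lay above the detection floor in each library, but the proximal tubule transporter Slc5a2 had at most 3 counts. Hnf3a replicates 2 and 3 held all 10 fibroblast markers above the floor, at a summed level of 8.34 and 10.2 FPKM, against 1 to 4 markers and 0.151 to 0.281 FPKM in the other 4 libraries. Of 18 macrophage markers, Hnf3a replicates 2 and 3 held 17 and 18 above the floor and the others 7 to 8. Their summed level was 40.5 to 50.8 FPKM in the Hnf3a group and 54.7 to 57.8 FPKM in the pcDNA group. Of 14 listed lymphocyte markers 9 were in the table, and 2 to 4 lay above the floor. The 9 summed to between 6.64 and 8.00 FPKM in each library, though Cd3g, Cd4 and Cd8a had at most 4 counts. The part of such cells in the results below was not tested, and values without Hnf3a replicates 2 and 3 are given where they change a call.

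Among the 26 ligands and receptors with enough counts to be tested, 2 fell in the Hnf3a group and 0 rose. The ligand Tnfsf15 stood at 65.3% of its pcDNA level and the receptor Cd40 at 39.6%. The 7 ligands and 15 receptors above the floor in every library were led by the receptor Tnfrsf12a, at 114 FPKM over all 6 libraries, and by the ligands Tnfsf15 and Tnfsf9. For the 3 most abundant receptors, Tnfrsf12a, Ltbr and Tnfrsf1a, the 95% interval of the difference held 0 and reached no further than 0.13 on the log2 scale. In edgeR's quasi-likelihood test 7.69% of the tested ligands and receptors passed an adjusted p of 0.05, against 3.17% of all 17824 genes tested (2.13% lower and 1.04% higher). At an unadjusted p below 0.05, 7 of the 26 were lower and 0 higher, or 26.9% against 13.5% of all genes (6.98% lower and 6.55% higher). DESeq2 and limma likewise called 0 of them higher. The median log2 fold change of the 26 was -0.06, and 15 estimates lay below 0 and 11 above, where over all genes 49.8% lay below 0. These counts describe the family and are not a test of it.

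**Figure D1:**
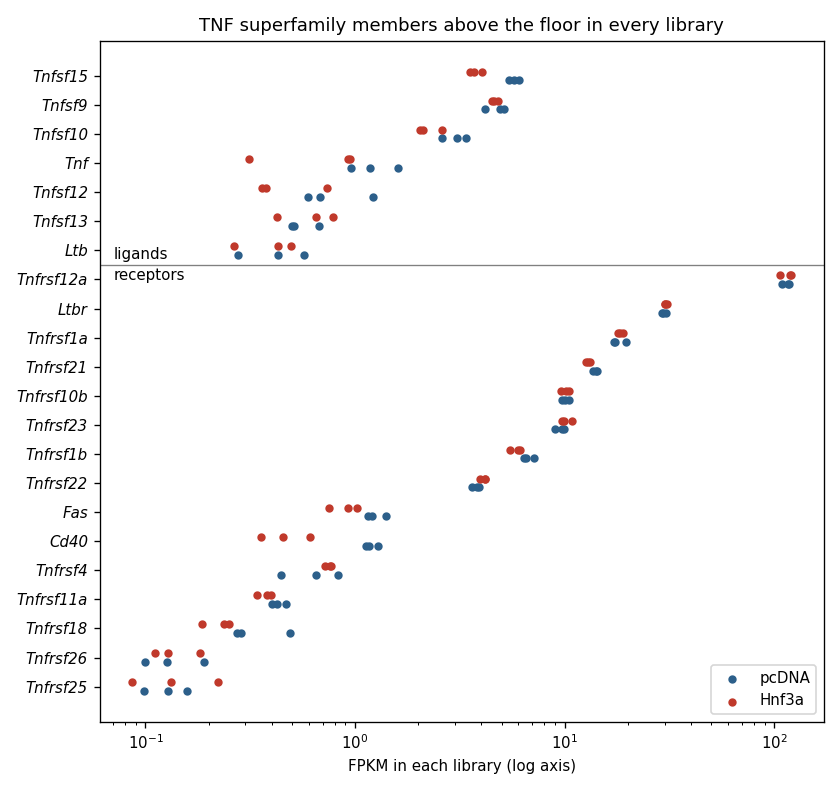
Level in each library, in FPKM on a log axis, of the 22 ligands and receptors above the floor in every library, with 1 point per library (blue pcDNA, red Hnf3a). The red points of Cd40 and Tnfsf15 lie clear of the blue ones, while those of Tnfrsf12a, Ltbr and Tnfrsf1a lie among them.

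Tnfsf15 encodes TL1A, the ligand of death receptor DR3, and is best known as a costimulator of T cells made by endothelial and myeloid cells. The gene (ENSMUSG00000050395) spans positions 63724603 to 63745113 of chromosome 4 in GRCm38 (minus strand), with 4 exons in its longest transcript and no overlapping gene. Its level was 4.05, 3.55 and 3.70 FPKM in Hnf3a replicates 1, 2 and 3, and 6.07, 5.72 and 5.43 FPKM in pcDNA replicates 1, 2 and 3. Every Hnf3a library was lower than every pcDNA library. The means were 3.77 ± 0.257 and 5.74 ± 0.318 FPKM (SD, n = 3), resting on 1588 to 1716 and 2309 to 2446 counts. The log2 fold change was -0.62 (SE 0.065, 95% interval -0.76 to -0.48, edgeR adjusted p = 8.31e-05). It passed the threshold in all 16 alternative analyses, the one without Hnf3a replicates 2 and 3 included.

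The bases before Tnfsf15 are shown because it is the ligand that fell and the overexpressed protein binds DNA. The stretch below runs 5′ to 3′ on the gene's strand, from the start of the RefSeq promoter window to the last base before the gene as the table places it (chr4:63745114-63745309, minus strand, GRCm38.p6). It is in lower case throughout, since neither motif searched for was found in the window of 250 bases before to 50 after the RefSeq start.
Tnfsf15: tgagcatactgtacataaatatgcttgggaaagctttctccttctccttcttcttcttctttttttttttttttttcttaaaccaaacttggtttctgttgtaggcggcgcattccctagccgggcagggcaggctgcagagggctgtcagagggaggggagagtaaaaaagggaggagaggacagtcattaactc
Both motifs were searched on both strands, each without regard to the other. The NF-κB type motif, which is GGG, any 5 bases and CC, was in 22 of the 34 windows of the 30 matched ligands and receptors (64.7%) and in 50.8% of all 32851 windows. TGTTTAC or TATTTAC, forkhead type motifs, were in 2 of the 34 (5.88%) and in 6.54% of all windows, and the 2 belonged to Ltb and Tnfrsf13b. Absence of a match says only that these letters are not in the window. Cd40 had no matching window. The nearest tested genes on either side of Tnfsf15, Tmem268 at 138246 bases and Rpl17-ps4 at 150432 bases, had log2 fold changes of 0.03 and 0.01 (edgeR adjusted p = 0.932 and 0.994). Tnfsf8, the ligand of CD30 and the closest family member at 86194 bases, had at most 6 counts in any library.

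Tnfsf9, a costimulatory ligand for activated T cells, had 4.78, 4.61 and 4.49 FPKM in the Hnf3a libraries and 5.14, 4.19 and 4.92 FPKM in the pcDNA libraries. The groups overlapped, with means of 4.63 ± 0.147 and 4.75 ± 0.498 FPKM (SD, n = 3), and the log2 fold change was -0.05 (95% interval -0.29 to 0.20, edgeR adjusted p = 0.926). The order of the leading ligands therefore differed between the groups. Tnfsf15 was the most abundant ligand in each pcDNA library, with 32.3% to 35.6% of the summed ligand FPKM, and Tnfsf9 was the most abundant in each Hnf3a library, with 33.5% to 39.2%. The ratio of Tnfsf15 to Tnfsf9 was 0.847, 0.769 and 0.825 with the Hnf3a plasmid and 1.18, 1.37 and 1.10 with the vector. A two-sided exact permutation test gave p = 0.1, the smallest that 3 libraries against 3 allow. Since Tnfsf15 alone already separated the groups, this p adds no separate support. Over all 15 ligands the summed level was 14.2, 11.8 and 13.4 FPKM in the Hnf3a libraries and 17.0, 16.5 and 16.8 FPKM in the pcDNA libraries.

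**Figure D2:**
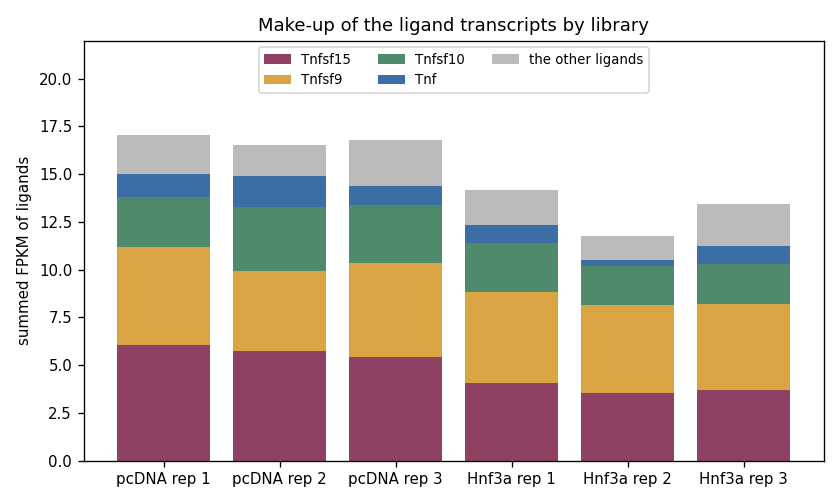
Summed FPKM of the 15 ligands in each library, stacked by gene, pcDNA libraries on the left and Hnf3a libraries on the right. The bars reach 16.5 to 17.0 FPKM in the pcDNA group and 11.8 to 14.2 FPKM in the Hnf3a group, and the Tnfsf15 block is the largest in every pcDNA bar.

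Tnfsf10 encodes TRAIL, which kills cells through a death receptor and was the third ligand by level. It had 2.58, 2.05 and 2.10 FPKM in the Hnf3a libraries and 2.60, 3.39 and 3.06 FPKM in the pcDNA libraries. The groups did not overlap, though Hnf3a replicate 1 lay just under pcDNA replicate 1. The means were 2.24 ± 0.296 and 3.02 ± 0.396 FPKM (SD, n = 3). Its log2 fold change was -0.44 (SE 0.11, 95% interval -0.68 to -0.20, unadjusted p = 0.00183, edgeR adjusted p = 0.0548), just short of the threshold. It passed in 6 of 16 alternatives, with the lowest adjusted p in DESeq2's Wald test (0.00557), and did not pass in 10. Both limma fits missed it (adjusted p = 0.235 and 0.245), as did edgeR without Hnf3a replicate 2 (adjusted p = 0.264). With Hnf3a replicate 1 as the sole Hnf3a library its log2 fold change was -0.22.

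Tnf, the founding cytokine of the family, had 0.927, 0.312 and 0.949 FPKM in the Hnf3a libraries and 1.18, 1.61 and 0.952 FPKM in the pcDNA libraries. Hnf3a replicate 2 stood far below the rest, at 41 counts against 111 to 194, and the highest Hnf3a value lay just under the lowest pcDNA value. The log2 fold change was -0.78 (SE 0.37, 95% interval -1.61 to 0.05, edgeR adjusted p = 0.411), and without Hnf3a replicate 2 it was -0.41. Tnfsf12 encodes TWEAK, a ligand known for acting on tubule cells. It had 0.361, 0.377 and 0.732 FPKM in the Hnf3a libraries and 0.682, 0.594 and 1.22 FPKM in the pcDNA libraries, so the groups overlapped. Its log2 fold change was -0.77 (SE 0.34, edgeR adjusted p = 0.346) at 40 to 135 counts. It was -0.39 without pcDNA replicate 3, -1.16 without Hnf3a replicate 3 and -1.21 with Hnf3a replicate 1 alone, and did not pass in any of these. Tnfsf12 overlaps the readthrough gene Tnfsfm13 on its own strand and Tnfsf13os on the other. How the counting used strand is not stated, so reads of these genes cannot be told apart.

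The other ligands were scarce. Tnfsf13 (APRIL, a survival factor for plasma cells) averaged 0.622 ± 0.182 and 0.561 ± 0.098 FPKM in the Hnf3a and pcDNA groups (SD, n = 3), and shares Tnfsfm13 and Tnfsf13os with Tnfsf12. Ltb, the membrane subunit of lymphotoxin, averaged 0.397 ± 0.118 and 0.425 ± 0.148 FPKM. Lta, the other lymphotoxin subunit, had 4 to 18 counts, and Tnfsf11 (RANKL, the osteoclast differentiation factor) had 4 to 29. Their edgeR adjusted p values lay between 0.91 and 0.986. The remaining 6 ligands, Fasl, Tnfsf13b (BAFF), Tnfsf14 (LIGHT), Tnfsf18, Tnfsf4 and Tnfsf8, never exceeded 8 counts and lay at or under the floor in every library. Fasl, the ligand of Fas, had 4 counts in Hnf3a replicate 1, 8 in pcDNA replicate 3 and 0 in the other 4 libraries. The floor was 12 counts, about 3 fragments, so differences among these 6 were not detectable at this depth. Tnfsf13os, with at most 11 counts, gave no difference beyond its error (log2 fold change 0.38, SE 1.10, edgeR adjusted p = 0.939). Of all 15 ligands, 9 were tested and 1 fell.

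**Figure D3:**
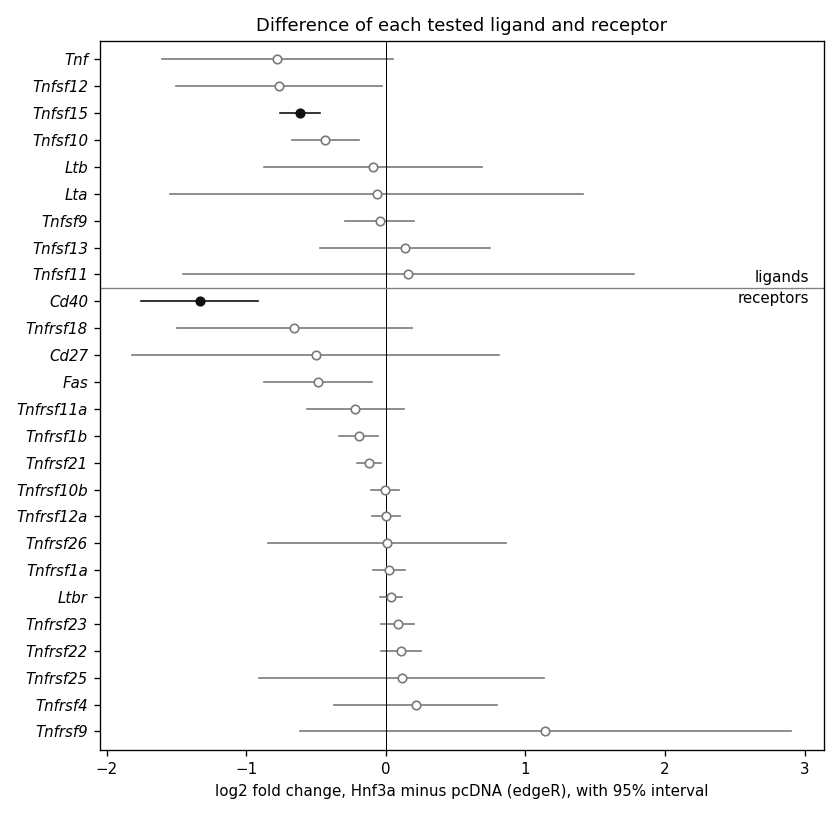
Log2 fold change of each of the 26 tested ligands and receptors, Hnf3a minus pcDNA, with its 95% interval from edgeR. Filled points passed the adjusted threshold of 0.05, and they are Tnfsf15 at -0.62 and Cd40 at -1.34.

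Cd40 encodes a TRAF-binding receptor best known on B cells, dendritic cells and macrophages, and also found on epithelia. The gene (ENSMUSG00000017652) spans positions 165055627 to 165072948 of chromosome 2 (plus strand) and has 9 exons and no overlapping gene. Its level was 0.612, 0.454 and 0.355 FPKM in Hnf3a replicates 1, 2 and 3, and 1.29, 1.17 and 1.13 FPKM in pcDNA replicates 1, 2 and 3. The groups were well apart, since the highest Hnf3a library had 153 counts and the lowest pcDNA library 281. The means were 0.474 ± 0.13 and 1.19 ± 0.0824 FPKM (SD, n = 3). The log2 fold change was -1.34 (SE 0.19, 95% interval -1.75 to -0.92, edgeR adjusted p = 0.00129). With Hnf3a replicate 1 as the sole Hnf3a library it was -0.96 and no longer passed (edgeR adjusted p = 0.0555); it passed in the other 15 alternatives. Hnf3a replicate 1 was also below every pcDNA library for Cd40. It had 7 of 18 macrophage markers above the floor, at a summed level of 40.5 FPKM. Each pcDNA library had 8 above the floor, at 54.7 to 57.8 FPKM. Whether macrophage RNA had a part in the Cd40 difference was not tested. Of the 18 macrophage markers 11 were tested, with 8 estimates higher and 3 lower in the Hnf3a group and a median log2 fold change of 0.82. In edgeR 2 passed, Cd14 and Mpeg1, both lower (log2 fold changes of -0.69 and -0.33), and at an unadjusted p below 0.05, 4 were higher and 2 lower. The flanking gene Ncoa5, at 20760 bases from Cd40, had a log2 fold change of 0.00 and Slc35c2, at 203606 bases, one of -0.03 (edgeR adjusted p = 0.986 and 0.867).

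Fas is a death receptor that activates caspase-8. It had 0.926, 1.02 and 0.753 FPKM in the Hnf3a libraries and 1.20, 1.15 and 1.40 FPKM in the pcDNA libraries, with no overlap. The log2 fold change was -0.49 (SE 0.18, 95% interval -0.87 to -0.10, unadjusted p = 0.0183, edgeR adjusted p = 0.229), which did not pass. Tnfrsf21 (DR6), known from neurons and T cells, had 12.6, 13.2 and 12.9 FPKM in the Hnf3a libraries and 13.6, 14.0 and 14.2 FPKM in the pcDNA libraries, again without overlap. Its log2 fold change was small, at -0.12 (SE 0.040, edgeR adjusted p = 0.158). Tnfrsf1a, the main receptor of TNF on most cells, had 17.9, 18.3 and 18.9 FPKM in the Hnf3a libraries and 17.2, 17.3 and 19.6 FPKM in the pcDNA libraries. The groups overlapped and the log2 fold change was 0.02 (95% interval -0.09 to 0.13, edgeR adjusted p = 0.931). Tnfrsf10b, the death receptor of TRAIL in mice, stood at 10.1 FPKM in both groups (log2 fold change -0.01, 95% interval -0.11 to 0.09, edgeR adjusted p = 0.965). Tnfrsf25 (DR3), the receptor of the ligand that fell, was near the bottom of the order, with 16 to 37 counts and a log2 fold change of 0.11 (95% interval -0.91 to 1.13, edgeR adjusted p = 0.96).

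**Figure D4:**
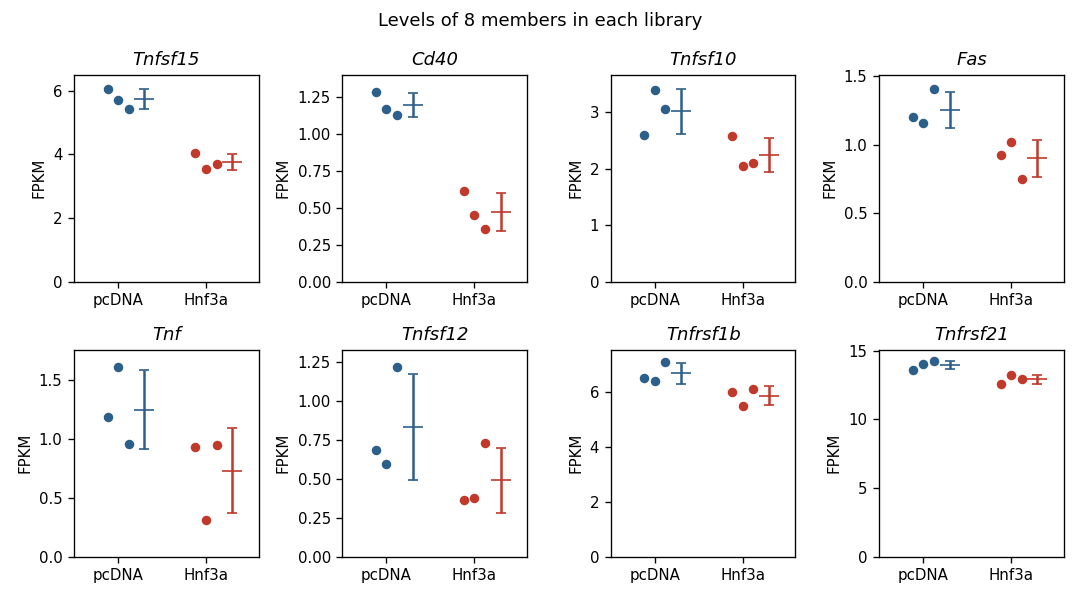
Level in FPKM of 8 members, with 1 point per library and, to its right, the group mean with its SD (n = 3). Cd40 and Tnfsf15 passed the adjusted threshold, while Tnfsf10, Fas, Tnf, Tnfsf12, Tnfrsf1b and Tnfrsf21 had lower Hnf3a means and did not.

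Receptors that signal without a death domain held most of the receptor transcripts. Tnfrsf12a encodes Fn14, the receptor of TWEAK, and alone made up 52.1% to 55.9% of the summed receptor FPKM. It had 106.2, 118.3 and 119.9 FPKM in the Hnf3a libraries and 117.1, 116.5 and 108.2 FPKM in the pcDNA libraries. The groups overlapped, with a log2 fold change of 0.00 (95% interval -0.10 to 0.10, edgeR adjusted p = 0.992). Ltbr, the lymphotoxin β receptor, came next with 30.9, 30.1 and 30.2 FPKM in the Hnf3a libraries and 29.3, 29.0 and 30.3 FPKM in the pcDNA libraries. It overlapped too, with a log2 fold change of 0.03 (95% interval -0.05 to 0.11, edgeR adjusted p = 0.793). Tnfrsf1b, the TNF receptor without a death domain, had 6.01, 5.47 and 6.11 FPKM in the Hnf3a libraries and 6.51, 6.41 and 7.11 FPKM in the pcDNA libraries, with no overlap. Its log2 fold change was -0.20 (SE 0.065, 95% interval -0.33 to -0.06, unadjusted p = 0.0097, edgeR adjusted p = 0.16), which did not pass. The sum over all 23 receptors was 202.4 to 214.5 FPKM in the Hnf3a libraries and 207.8 to 211.3 FPKM in the pcDNA libraries.

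The decoy receptors of TRAIL in mice, Tnfrsf22 and Tnfrsf23, lie 16147 bases apart on chromosome 7 beside Tnfrsf26. Tnfrsf22 averaged 4.09 ± 0.116 FPKM in the Hnf3a group and 3.77 ± 0.136 FPKM in the pcDNA group (SD, n = 3). Among the tested members it was the sole one whose Hnf3a libraries all lay above the pcDNA libraries, with a log2 fold change of 0.11 (edgeR adjusted p = 0.54). Tnfrsf23 averaged 10.2 ± 0.585 and 9.53 ± 0.469 FPKM, and its groups overlapped (log2 fold change 0.08, edgeR adjusted p = 0.59). These 3 neighbours are related in sequence and E230032D23Rik overlaps them on the opposite strand, so their counts are uncertain. Tnfrsf11b encodes osteoprotegerin, a secreted decoy of RANKL and TRAIL. It had 4 counts in pcDNA replicate 3 and 0 in the other 5 libraries.

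The other receptors were scarce, and many of them are known mainly from immune cells. Tnfrsf4 (OX40), Tnfrsf11a (RANK), Tnfrsf18 (GITR), Tnfrsf26, Tnfrsf9 and Cd27 were tested, and their edgeR adjusted p values lay between 0.528 and 0.995. The estimates furthest from 0 were those of Tnfrsf9 (log2 fold change 1.14, SE 0.82, at 0 to 22 counts) and Tnfrsf18 (log2 fold change -0.66, SE 0.39, at 21 to 56 counts). Tnfrsf9 is the receptor of Tnfsf9 and overlaps Camta1 on the opposite strand. Tnfrsf14 (HVEM, the receptor of LIGHT) had 0 to 21 counts and Tnfrsf13c (the BAFF receptor) 4 to 14, and neither was tested. Tnfrsf13b (TACI), Tnfrsf8 (CD30), Tnfrsf19 and Tnfrsf11b lay at or under the floor in every library, with at most 10 counts. Of all 23 receptors, 17 were tested and 1 fell. By level, neighbours in the receptor order did not overlap from Tnfrsf12a down to Fas in either group, except for Tnfrsf10b and Tnfrsf23. Cd40 ranked 10 of 15 in the pcDNA group, where its range overlapped that of Fas, and 11 of 15 in the Hnf3a group, where it overlapped that of Tnfrsf11a.

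Counted over ligands and receptors together, 9 of the 26 tested had every Hnf3a library below every pcDNA library and 1 the reverse. The 9 were Tnfsf15, Tnfsf10, Tnf, Cd40, Fas, Tnfrsf1b, Tnfrsf21, Tnfrsf11a and Tnfrsf18. These shares are 34.6% lower and 38.5% in either direction, against 9.81% and 18.9% of all genes tested (9.12% higher). By ligand and receptor pair, transcripts of TWEAK and Fn14 were both detected. So were those of TNF with its 2 receptors and of TRAIL with its death receptor and 2 decoys. Of these, Tnf, Tnfsf10, Tnfsf12, Tnfrsf1b and, at a log2 fold change of only -0.01, Tnfrsf10b had lower Hnf3a means and missed the threshold. For the ligand that fell and its receptor, transcripts of TL1A stood at 3.77 to 5.74 FPKM and those of DR3 at 0.128 to 0.147 FPKM by group mean. For Fas the ligand was at the floor, and the ligand of Cd40 had no entry in the table.

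Below the receptors, 31 adaptors, kinases and ubiquitin enzymes were tested. In the Hnf3a group 5 of them fell and 0 rose, or 16.1% against 3.17% of all genes. At an unadjusted p below 0.05, 9 were lower and 1 higher, or 29.0% lower against 6.98% of all genes, and DESeq2 and limma called 0 higher. The median log2 fold change was -0.05. Tnfaip3 encodes A20, a deubiquitinase that limits NF-κB and is itself a target of it. It had 7.08, 7.47 and 7.02 FPKM in the Hnf3a libraries and 9.59, 9.15 and 8.80 FPKM in the pcDNA libraries, with a log2 fold change of -0.36 (SE 0.044, edgeR adjusted p = 0.000327). Birc3 encodes cIAP2, a ubiquitin ligase of the TNF receptor complex. It had 5.36, 5.51 and 5.20 FPKM in the Hnf3a libraries and 6.93, 6.67 and 6.63 FPKM in the pcDNA libraries, with a log2 fold change of -0.34 (SE 0.050, edgeR adjusted p = 0.00153). Both genes were lower in every Hnf3a library and passed in all 16 alternatives.

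Cflar encodes cFLIP, which blocks caspase-8, and averaged 7.97 ± 0.103 FPKM against 9.10 ± 0.17 FPKM in the pcDNA group (SD, n = 3; log2 fold change -0.20, edgeR adjusted p = 0.00388). Tnip1, a partner of A20, averaged 23.0 ± 0.723 against 26.6 ± 0.597 FPKM (log2 fold change -0.22, edgeR adjusted p = 0.00485). Mlkl, the pore-forming executor of necroptosis, averaged 37.4 ± 1.68 against 43.1 ± 0.517 FPKM (log2 fold change -0.21, edgeR adjusted p = 0.00672). With Hnf3a replicate 1 as the sole Hnf3a library, Cflar, Tnip1 and Mlkl did not pass. Cflar and Mlkl were also missed by both limma fits, Tnip1 without Hnf3a replicate 2, and Mlkl without pcDNA replicate 2 or 3. The following adaptors and enzymes of the death-inducing and TNF receptor complexes were not called. The adaptor Tradd had a log2 fold change of 0.03 (edgeR adjusted p = 0.941), Fadd -0.10 (0.611), the kinase Ripk1 -0.11 (0.393), Casp8 0.06 (0.633) and Traf2 -0.12 (0.368). Map3k14 (NIK), the kinase of the non-canonical NF-κB pathway below CD40 and the lymphotoxin β receptor, had 0.04 (0.88). Ripk3, the kinase that acts on MLKL, had 5 to 36 counts and a log2 fold change of -1.20 (SE 0.62, edgeR adjusted p = 0.437).

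**Figure D5:**
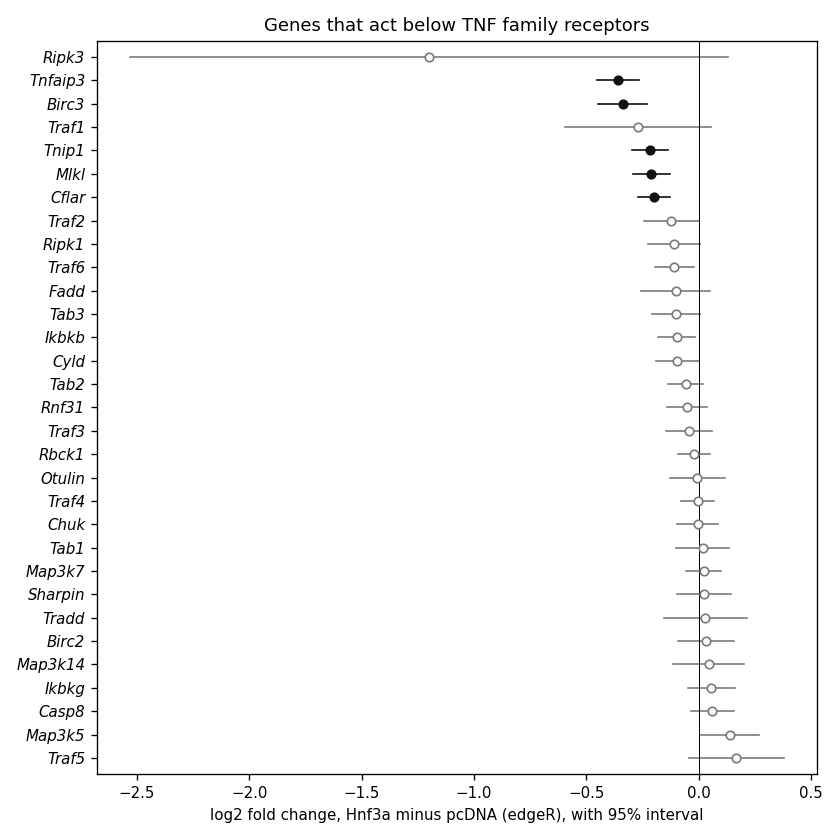
Log2 fold change, Hnf3a minus pcDNA, of 31 genes that act below TNF family receptors, with 95% intervals from edgeR. The 5 filled points, which passed the adjusted threshold of 0.05, are Tnfaip3, Birc3, Tnip1, Mlkl and Cflar, and all lie below 0.

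Of 5 genes that control the release of TNF and its receptors from the cell surface, 1 fell, where 3.17% of all genes passed. Rhbdf1 (iRhom1), a partner of the protease ADAM17, averaged 21.3 ± 0.481 FPKM in the Hnf3a group and 24.4 ± 0.272 FPKM in the pcDNA group (SD, n = 3; log2 fold change -0.21, SE 0.033, edgeR adjusted p = 0.00272). With Hnf3a replicate 1 as the sole Hnf3a library its edgeR adjusted p was 0.0591. The log2 fold changes of Adam17, Adam10, Rhbdf2 and the inhibitor Timp3 were 0.12, 0.08, -0.11 and 0.00 (edgeR adjusted p = 0.133, 0.41, 0.246 and 0.991). Of 8 family genes with other symbols, 6 were tested and 0 passed in edgeR. At an unadjusted p below 0.05, Rell1 and Eda2r were higher, with log2 fold changes of 0.15 and 0.32 (edgeR adjusted p = 0.0573 and 0.274). Rell1 was called higher by DESeq2 and in 5 of the edgeR alternatives, namely with all genes of at least 1 count, with the 1 FPKM filter, with total-count scaling, with counts divided by 4 and without Hnf3a replicate 1. Neither limma fit called it. Ngfr, Relt, Rell2 and Eda had estimates of 0.36, 0.11, 0.30 and -0.29, and Edar and Edaradd were too scarce to test.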

How the data were processed

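RNA was sequenced from 6 libraries of TKPTS cells, 3 per group. The sample titles gave the groups and replicate numbers. For each gene and library the authors deposited an estimated count and a length-scaled FPKM (fragments per kilobase, relative to library size). The submitters' processing notes name cutadapt 1.9, HISAT2 2.0.4, UMI-tools, StringTie 1.3.4d, DESeq2, edgeR and mm10, with no role or order given. How strand was used in counting is not given in the sources used here. The estimated counts were whole numbers. Values of 4 counts were more frequent than values of 3 or 5 (1148 against 680 and 378 genes in Hnf3a replicate 1). A fragment was therefore taken as about 4 counts, and 12 counts, or 3 fragments, served as the floor (0.169 to 0.198 CPM). This floor covers counting error only. The intervals given with log2 fold changes come from the edgeR fit and include the spread between libraries.

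Genes were filtered with filterByExpr, scaled by TMM and tested two-sided with edgeR 4.0.16 (glmQLFit with robust estimation, glmQLFTest) in R 4.3.3, without covariates. The study's general test for comparing a pair of groups was not used, since the values are counts. P-values were adjusted by the Benjamini-Hochberg method across the 17824 genes that passed the filter, and called below 0.05. Fold changes come from counts, levels from FPKM. With 3 libraries against 3 an exact permutation test cannot go below p = 0.1. The test was tried on simulated data before use. A chi-square comparison of counts divided by 4 gave a mean of 2.19 to 7.21 per gene over the pairs of libraries, where sampling noise alone gives about 1, so no 2 libraries agreed within sampling noise. The deviations of same-numbered libraries from their group means correlated at -0.041, -0.01 and 0.01, so no pairing was found, though weak pairing could be missed.

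The members, the lists of signalling, shedding and marker genes, and the tests were chosen with earlier results of these data known. Values in every library were given for members past the threshold, for tested members with an unadjusted p below 0.05, for the 3 ligands and 3 receptors of highest level, and for Tnf, Tnfrsf1a, Tnfrsf1b, Fas, Fasl, Cd40, Tnfrsf11b and Tnfrsf12a. Alternatives were other filters, DESeq2 size factors, total-count scaling, DESeq2 1.42.0, limma 3.58.1 on log2(FPKM + 0.1) and log2(FPKM + 1), counts divided by 4, a replicate block, and leaving out each library. With a pseudocount added to FPKM, fold changes of low genes come out too small. The analysis with Hnf3a replicate 1 as the sole Hnf3a library was chosen after the marker genes had been seen. Overlapping genes and exon numbers are from GENCODE vM21, in which 25765 of 29514 shared genes had the table's coordinates. Promoter windows are from RefSeq (GRCm38.p6) and matched 30 of the 38 ligands and receptors.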

Additional observations from a re-analysis of the deposited data

How the results depend on the processing

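Over all genes 565 passed, 186 higher and 379 lower. The count was 236 and 231 by limma with pseudocounts of 0.1 and 1, 322 with Hnf3a replicate 1 as the sole Hnf3a library, and 263 to 643 when 1 library was left out. It was 263 without Hnf3a replicate 2, 286, 267 and 349 without pcDNA replicates 1, 2 and 3, and 643 without Hnf3a replicate 1. DESeq2 called 824. The ligands called were 1 in the reported analysis. They were 2, by the addition of Tnfsf10, with all genes of at least 1 count, with genes of at least 1 FPKM, by DESeq2 and with counts divided by 4. When 1 library was left out they were 1 to 2, with Tnfsf10 added without Hnf3a replicate 1 (edgeR adjusted p = 0.0125) and without pcDNA replicate 1 (0.0475). The receptors called were 1 in every alternative but that with Hnf3a replicate 1 alone, where they were 0, with 2 lower and 1 higher at an unadjusted p below 0.05 in edgeR. That alternative was chosen after seeing the data and assumes that the lone library varies like the others. The transducers called were 5, against 3 in both limma fits, 2 with Hnf3a replicate 1 alone, and 4 to 5 when 1 library was left out. The cause of these changes was not tested. With the replicate block the counts were 463 over all genes, 1 ligand, 1 receptor and 5 transducers, and Cd40 had an edgeR adjusted p of 0.00181. The block changed no call among the ligands, receptors and transducers, and the replicate numbers were not found to mark pairs. No value reported here reversed its direction among those past the threshold. The 1 FPKM filter leaves out Tnf and Tnfsf12. For the scarce members depth is the limit.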
